A study of Mus musculus with 28 samples.

Results

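Albumin, 2 other transport proteins of the plasma (transthyretin, Ttr; transferrin, Trf), 6 apolipoproteins (Apoa1, Apoa2, Apoa4, Apob, Apoc3, Apoe) and the microsomal triglyceride transfer protein Mttp are described here in mouse liver tumors and non-tumor liver. These 10 of the 22187 genes in the table were chosen by name as secretory products of hepatocytes and their loading protein, and because Alb alone took 2.43% to 14.45% of all CPM (counts per 1000000, the total of every library) in a library. The choice was made with earlier results on these libraries known. Alb is therefore described without a test, and the other 9 are tested only in fits of all genes.

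RNA was sequenced from 28 bulk libraries, 14 of tumors and 14 of non-tumor liver. All mice were C57BL/6, were injected with the liver carcinogen diethylnitrosamine (DEN) at 25 mg/kg when 2 weeks old, and had both copies of Il17ra floxed (IL17RA_floxflox); this gene encodes a receptor chain for interleukin-17. The dHEP mice (AlbCre_IL17RA_floxflox) also carried a Cre recombinase driven by the albumin promoter, which acts in hepatocytes. Bulk libraries do not show which liver cells kept the receptor. The FF mice had the floxed alleles without Cre. The mice then received the alcohol diet or chow for 18 weeks. The groups were dHEP alcohol tumors, FF alcohol tumors, dHEP alcohol non-tumor liver and FF alcohol non-tumor liver (n = 4 each), and dHEP chow tumors, FF chow tumors, dHEP chow non-tumor liver and FF chow non-tumor liver (n = 3 each). The alcohol diet is labelled HFD_alcohol and is elsewhere described as liquid ethanol feeding. Mice on alcohol were numbered from FF-503 upward and mice on chow up to FF-169, and the effects of diet and of cohort cannot be told apart. Tumor and non-tumor libraries came from the same mice except in FF chow mice, and the labels give no sex.

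Hepatocytes make most plasma proteins. Albumin carries fatty acids, hormones and drugs, transferrin carries iron, and transthyretin carries thyroid hormone and, with retinol-binding protein, vitamin A. Mttp loads lipid onto apolipoprotein B during the assembly of very-low-density lipoprotein (VLDL). Apolipoprotein A-I and A-II are the main structural proteins of high-density lipoprotein (HDL). A-IV is made mainly by the intestine and is induced in mouse liver under lipid load. C-III slows the clearance of triglyceride-rich particles, and apolipoprotein E is a ligand for their uptake by receptors.

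The windows of 250 bases before to 50 after the RefSeq transcription start are shown for Alb, the most abundant member, and for the 3 apolipoprotein genes called in tumors of all 4 genotype and diet groups. The sequences are those of RefSeq on GRCm38.p6. In the gene annotation used for the positions further on, the nearest start is the same for Apoa2, but the RefSeq start lies 148 bp downstream of it for Apoa4, 50 bp downstream for Apoa1 and 27 bp upstream for Alb. They lie at chr5:90460620-90460919 (plus strand) for Alb, chr9:46228380-46228679 (plus strand) for Apoa1, chr9:46240594-46240893 (plus strand) for Apoa4 and chr1:171224804-171225103 (plus strand) for Apoa2. Capitals mark matches, on either strand, to 5 motifs of liver promoters: the hepatocyte nuclear factor 4 element CAAAGTNCA, the hepatocyte nuclear factor 1 half-site GTTAAT, the C/EBP element TTGCNNAA, the CCAAT box and the TATAAA box.
Alb: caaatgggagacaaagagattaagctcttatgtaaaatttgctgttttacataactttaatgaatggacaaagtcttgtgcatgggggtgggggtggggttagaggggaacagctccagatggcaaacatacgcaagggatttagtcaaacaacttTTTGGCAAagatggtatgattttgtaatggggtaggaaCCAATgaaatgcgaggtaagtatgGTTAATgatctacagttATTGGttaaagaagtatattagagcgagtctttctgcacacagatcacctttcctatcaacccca
Apoa1: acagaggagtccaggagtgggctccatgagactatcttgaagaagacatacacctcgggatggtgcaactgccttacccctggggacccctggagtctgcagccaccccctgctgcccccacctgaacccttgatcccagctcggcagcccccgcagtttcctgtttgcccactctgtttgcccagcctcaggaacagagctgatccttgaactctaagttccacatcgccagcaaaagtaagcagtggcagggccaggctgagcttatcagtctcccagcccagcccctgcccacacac
Apoa4: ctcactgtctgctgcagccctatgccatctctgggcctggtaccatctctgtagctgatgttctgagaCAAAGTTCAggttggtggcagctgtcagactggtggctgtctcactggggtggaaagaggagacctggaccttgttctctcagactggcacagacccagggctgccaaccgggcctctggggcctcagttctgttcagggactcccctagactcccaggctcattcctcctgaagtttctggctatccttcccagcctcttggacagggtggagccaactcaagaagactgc
Apoa2: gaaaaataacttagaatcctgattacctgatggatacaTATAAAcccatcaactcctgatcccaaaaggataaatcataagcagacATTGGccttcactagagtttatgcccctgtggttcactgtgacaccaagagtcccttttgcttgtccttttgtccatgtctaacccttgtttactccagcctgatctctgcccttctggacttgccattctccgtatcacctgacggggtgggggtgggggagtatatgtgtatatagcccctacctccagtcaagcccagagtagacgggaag
The Alb window held a C/EBP element read on the minus strand (-94 to -87 from the RefSeq start, as for all positions here), a CCAAT box (-56 to -52), a hepatocyte nuclear factor 1 half-site (-32 to -27) and a second CCAAT box on the minus strand (-15 to -11). The Apoa4 window held a hepatocyte nuclear factor 4 element (-182 to -174), the Apoa2 window a TATAAA box (-212 to -207) and a CCAAT box on the minus strand (-164 to -160), and the Apoa1 window held no match to the 5 motifs. Of 32544 mouse promoter windows of the same length, 1.43% held the hepatocyte nuclear factor 4 element, 7.13% the hepatocyte nuclear factor 1 half-site, 10.8% the C/EBP element, 37.4% the CCAAT box and 13.6% the TATAAA box. The Alb window was the poorest of the 4 shown in G and C (40%, against 47.0% for Apoa2, 57.3% for Apoa4 and 59.3% for Apoa1).

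In the gene annotation of the same build, Apoa1 (chr9:46228580-46230466, plus strand), Apoc3 (chr9:46232933-46235636, minus strand), Apoa4 (chr9:46240696-46243459, plus strand) and a gene outside the set, Apoa5 (chr9:46268633-46271919, plus strand), lie side by side within 43340 bp. The distances between neighbours are 2466, 5059 and 25173 bp. Trf lies apart on the same chromosome (chr9:103204001-103230444, minus strand). Of the others, 5 are at chr5:90460897-90476602 (Alb, plus strand), chr1:171225054-171226379 (Apoa2, plus strand), chr12:7977648-8016835 (Apob, plus strand), chr7:19696109-19699188 (Apoe, minus strand) and chr3:138089854-138144968 (Mttp, minus strand). All 10 members passed the filter on low values in every fit; Mttp, the lowest, read 354 to 565 CPM.

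Libraries held 9.57 to 17.82 M reads, estimated by taking the commonest value under 1 CPM in a library as 1 read. Il17ra, the targeted gene, read 8.38 to 29.4 CPM in dHEP tumors against 20.8 to 33.9 CPM in FF tumors, and 8.34 to 13.0 CPM in dHEP non-tumor liver against 14.7 to 31.0 CPM in FF non-tumor liver, so the genotypes overlapped in tumors only. The following 4 libraries stood apart. The non-tumor libraries of FF-523 and FF-581 held 213 and 159.2 CPM of Afp, the fetal alpha-fetoprotein, against 1.41 to 8.82 CPM in the other non-tumor libraries, and the sum of 8 oncofetal genes was 376.1 and 430.9 CPM in them against 20.7 to 102.3 CPM in the others. The tumor library of dHEP-549 was low in these genes (sum 55.52 CPM, Afp 5.47 CPM). The non-tumor library of FF-158 held 1393 CPM of 6 female-biased and 601.7 CPM of 7 male-biased liver genes, against 6.22 to 186.7 and 5075 to 15915 CPM in the other non-tumor libraries. The 10 hepatocyte enzyme genes of the marker list summed to 5601 to 37786 CPM over the tumors and 15367 to 25544 CPM over non-tumor libraries. Hepatocyte markers were thus read in every library as a sum. The sum does not show that each gene was kept, and some were called lower in tumors, as given below.

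Albumin messenger RNA took a larger share of the library in tumors than in non-tumor liver in each of the 4 groups. In dHEP mice on alcohol the tumor share was 14.45% in dHEP-518, 8.98% in dHEP-520, 9.97% in dHEP-549 and 8.93% in dHEP-550, against 5.59%, 4.08%, 3.73% and 2.43% in their non-tumor liver. In FF mice on alcohol the tumor share was 12.75% in FF-503, 10.01% in FF-523, 12.68% in FF-581 and 10.84% in FF-595, against 3.76%, 4.0%, 5.37% and 2.68% in their non-tumor liver. Every tumor on alcohol lay above every non-tumor library on alcohol. In dHEP mice on chow the share was 6.78%, 11.87% and 10.27% in tumors of dHEP-155, dHEP-164 and dHEP-165, against 3.96%, 3.24% and 3.56% in their non-tumor liver. In FF mice on chow it was 9.95%, 10.07% and 11.17% in tumors of FF-167, FF-168 and FF-169, against 5.97%, 6.41% and 5.58% in non-tumor liver of other mice, FF-157, FF-158 and FF-159. Values per library are given below in this order of mice. FF chow non-tumor liver held the highest group mean of the 4 non-tumor groups, and the groups of tumors and non-tumor liver overlapped nowhere. The mean over all 14 tumors was 10.62 ± 1.91% (SD) and over all 14 non-tumor libraries 4.31 ± 1.25%. As Alb was chosen for this share, the difference is a description. In bulk tissue, fewer cells of a type and less RNA per cell cannot be told apart, for Alb and for all genes below.

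Together the 10 genes took 14.74% to 27.34% of CPM in tumors (mean 21.2 ± 3.69%, SD, n = 14) and 8.91% to 14.2% in non-tumor liver (11.28 ± 1.69%, n = 14). Without Alb, the other 9 took 7.2% to 13.43% of a tumor library and 6.23% to 8.67% of a non-tumor library. Transferrin made up much of that remainder, with 1.64% to 6.58% of CPM in a tumor and 1.25% to 2.55% in a non-tumor library. Because every column sums to 1000000, a larger share of these genes leaves less for all other genes in a tumor library. Scaling instead to the total without the 10 genes moved the median log2 fold change of all genes, tumor over non-tumor liver, up by 0.14 in dHEP alcohol, 0.14 in dHEP chow, 0.19 in FF alcohol and 0.13 in FF chow mice, and median-of-ratios scaling moved it down by more than 0.1 in chow mice only (-0.12 in dHEP, -0.15 in FF). No member called in a tissue comparison turned its direction under either scaling.

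**Figure D1:**
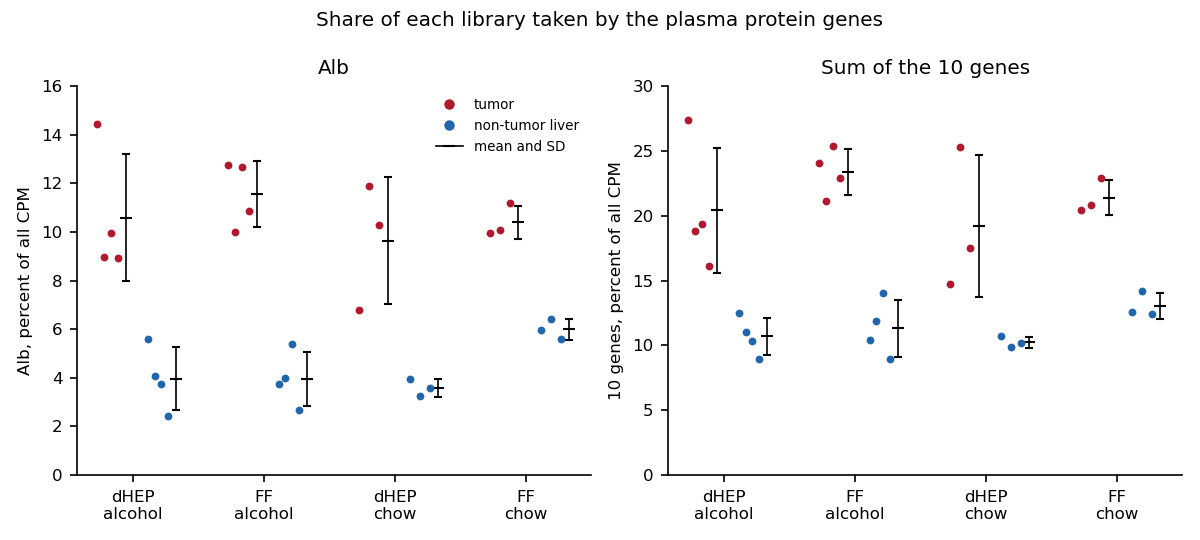
Share of all CPM (%, vertical axis) taken by Alb and by the 10 genes together in each library (points), with the mean and SD of each group (n = 4 on alcohol, n = 3 on chow), tumors left of non-tumor liver. Alb takes 6.78% to 14.45% in the 14 tumors and 2.43% to 6.41% in the 14 non-tumor libraries.

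Of the 9 tested members, 3 were higher and 1 lower in tumors of dHEP alcohol, FF alcohol and FF chow mice, and 2 were higher and 1 lower in tumors of dHEP chow mice. Apoa4 and Apoa1 rose and Apoa2 fell in all 4 groups, Trf rose in 3, and Ttr, Apob, Apoc3, Apoe and Mttp were called in none. Called means an adjusted p under 0.05 with limma after Benjamini-Hochberg adjustment over all 13503 genes tested, on log2(CPM + 1). In dHEP alcohol mice 4 of 9 members were called (44.4%), against 20.4% of all genes; 12.9% of all genes were called higher and 7.54% lower in tumors. In FF alcohol mice it was 4 of 9 (44.4%) against 24.6% of all genes, 13.9% higher and 10.6% lower. In FF chow mice it was 4 of 9 (44.4%) against 30.8%, 21.2% higher and 9.55% lower, and in dHEP chow mice 3 of 9 (33.3%) against 27.9%, 17.2% higher and 10.7% lower. With only 9 members, 1 call moves the share widely, and the shares of both chow groups lie near those of all genes. The counts are therefore not read as a result about the set in any group. With no filter on low values the count was smaller in every group. Trf then lost its calls in dHEP alcohol, FF alcohol and FF chow mice, and Apoa1 its call in dHEP chow mice. In dHEP alcohol mice the calls of Apoa1 and Apoa2 were lost as well. Leaving out any 1 of the 4 libraries that stood apart ended no member's call in these comparisons.

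The median log2 fold change of the 9 members was 0.30 in dHEP alcohol, 0.17 in FF alcohol, -0.16 in dHEP chow and 0.03 in FF chow mice, against medians of all genes of 0.09, 0.05, 0.14 and 0.16 in the same order. Tumor and non-tumor libraries did not overlap for 7 of 9 members in dHEP alcohol mice (21.2% of all genes), 5 in FF alcohol (28.3%), 5 in dHEP chow (38.5%) and 7 in FF chow mice (46.3%). Hepatocyte enzyme genes, 10 in the list, were called lower in tumors for 2 in dHEP alcohol, 6 in FF alcohol, 8 in dHEP chow and 3 in FF chow mice and higher for 0 in each. Of 8 oncofetal genes tested, 3, 5, 5 and 6 were called higher in the same order of groups. Of 8 stellate cell and fibroblast genes, 2, 2, 4 and 4 were called higher in that order. Of 7 male-biased liver genes, 5, 5, 4 and 4 were called lower and 0 higher in each. Of 7 Kupffer cell and macrophage genes, 3, 3, 3 and 0 were called lower, and 1 (Cd68) was called higher in FF chow mice. Of 7 lymphocyte genes tested, 4 were called higher in FF chow mice and 0 in the other groups. Of 7 endothelial genes, 1, 1, 0 and 2 were called higher and 1 lower in dHEP chow mice, the female-biased Cyp2b9 was called higher in both dHEP groups, and 0 of 5 cholangiocyte genes were called in any. The male-biased genes summed to 568 to 15295 CPM over the tumors, against 602 to 15915 CPM over non-tumor libraries, and the Kupffer cell and macrophage genes to 92.9 to 491 CPM over the tumors, against 220.0 to 585 CPM over non-tumor libraries. The part of these lists in the members' differences was not tested.

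**Figure D2:**
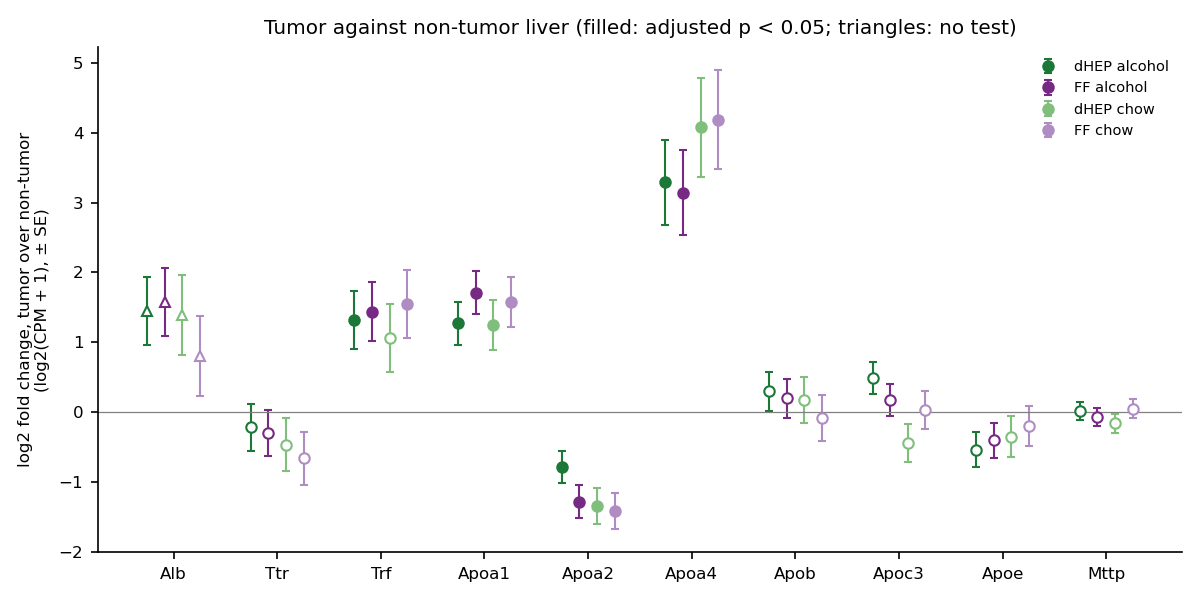
Log2 fold change of each member, tumor over non-tumor liver (vertical axis, log2 of CPM + 1), with its standard error, in the 4 groups (colors). Filled symbols have an adjusted p under 0.05, triangles mark Alb, which was not tested; Apoa4 lies at 3.14 to 4.19, Apoa1 at 1.25 to 1.71 and Apoa2 at -1.42 to -0.78.

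Among the HDL proteins, apolipoprotein A-I and A-II moved in opposite directions. In dHEP mice on alcohol Apoa1, which encodes the main HDL protein and the activator of Lcat, read 17950.5, 10526, 11824 and 7775 CPM in tumors, against 4620.2, 4120.0, 5594 and 4855 CPM in non-tumor liver. FF mice on alcohol had 15959.9, 14063, 18742 and 14047 CPM of Apoa1 in tumors, against 3948, 4045, 7268 and 4395 CPM in non-tumor liver. The highest non-tumor value in these mice was that of FF-581, and it still lay below every tumor. On chow, dHEP tumors held 8701, 18559 and 11216 CPM of Apoa1, against 4451, 5407 and 5642 CPM in dHEP non-tumor liver. The FF chow tumors held 16501, 10453 and 15509 CPM of Apoa1, against 6002, 3064 and 5401 CPM in FF chow non-tumor liver. Tumors lay above non-tumor liver in all 4 groups without overlap.

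The log2 fold change of Apoa1 was 1.27 ± 0.31 (SE; adjusted p = 0.0053) in dHEP alcohol, 1.71 ± 0.31 (SE; adjusted p = 0.00028) in FF alcohol, 1.25 ± 0.36 (SE; adjusted p = 0.011) in dHEP chow and 1.58 ± 0.36 (SE; adjusted p = 0.0019) in FF chow mice. These are 2.41, 3.28, 2.37 and 3.0 times the non-tumor level. Relative to the median of all genes, Apoa1 was higher by 1.11 to 1.66 on the log2 scale. In dHEP chow mice the call was lost with median-of-ratios scaling (adjusted p = 0.057), with no filter on low values (0.11) and without the dHEP-164 tumor library (0.061), and in dHEP alcohol mice with no filter (0.077).

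Apoa2, which encodes the other structural HDL protein, was lower in every tumor. In dHEP alcohol mice it read 2745, 2413, 3912 and 2914 CPM in tumors, against 5504, 5216, 4671 and 4910.2 CPM in non-tumor liver. In FF alcohol mice Apoa2 read 1878, 1739, 2365 and 1907 CPM in tumors, against 4574, 4840.4, 5459 and 4215 CPM in non-tumor liver. The dHEP-549 tumor, low in oncofetal genes, had the highest Apoa2 of the 14 tumors. Chow-fed dHEP mice had 1262, 2189 and 3542 CPM of Apoa2 in tumors, against 5552, 4979.6 and 5793 CPM in non-tumor liver. Chow-fed FF mice had 2015, 1771 and 2240.4 CPM of Apoa2 in tumors, against 5112, 5419 and 5541 CPM in non-tumor liver. No tumor reached the lowest non-tumor library in any group.

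For Apoa2 the log2 fold change was -0.78 ± 0.23 (SE; adjusted p = 0.018) in dHEP alcohol, -1.28 ± 0.23 (SE; adjusted p = 0.00027) in FF alcohol, -1.34 ± 0.26 (SE; adjusted p = 0.00064) in dHEP chow and -1.42 ± 0.26 (SE; adjusted p = 0.0004) in FF chow mice, or 0.582, 0.412, 0.394 and 0.374 times the non-tumor level. The call in dHEP alcohol mice was lost with no filter (adjusted p = 0.064), with the total taken without the 10 genes (0.056) and without the dHEP-520 tumor library (0.058). The calls in the other 3 groups held under every setting tried.

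The CPM ratio of Apoa1 to Apoa2 combines both differences and does not depend on the scaling of a library. It ranged from 2.668 to 8.498 in the 14 tumors (mean 6.287 ± 2.12, SD) and from 0.565 to 1.331 in the 14 non-tumor libraries (0.962 ± 0.199), without overlap. By group it averaged 4.15 ± 1.75 in dHEP alcohol tumors, 7.97 ± 0.468 in FF alcohol tumors, 6.18 ± 2.73 in dHEP chow tumors and 7.01 ± 1.15 in FF chow tumors. Per kb of exon, the mean ratio was 2.73 in tumors and 0.418 in non-tumor liver, so Apoa1 was the more abundant of both per length in each tumor (1.16 to 3.69) and the less abundant in each non-tumor library (0.246 to 0.579). The ratio joins 2 genes already called, so it is given without a test of its own.

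Apoa4 showed the widest differences of the set. In dHEP alcohol mice it read 5499, 3265, 2968 and 3509.8 CPM in tumors, against 415, 281, 426 and 407 CPM in non-tumor liver. FF alcohol tumors held 12090.3, 3813, 8684 and 5251 CPM of Apoa4, against 518.3, 1818, 1614 and 227 CPM in FF alcohol non-tumor liver. The non-tumor libraries of FF-523 and FF-581, which also held Afp, were the highest of all 14 non-tumor libraries, the other 12 reading 94.15 to 518.3 CPM. For dHEP chow mice Apoa4 was 3795, 2707 and 1675 CPM in tumors, against 268, 94.2 and 137 CPM in non-tumor liver. For FF chow mice Apoa4 was 7124, 779.9 and 6236 CPM in tumors, against 223, 225 and 111 CPM in non-tumor liver. Tumors lay above non-tumor liver in every group, and the lowest tumor, FF-168, had the highest oncofetal sum of the 14 tumors (4701 CPM).

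The log2 fold change of Apoa4 was 3.29 ± 0.61 (SE; adjusted p = 0.00067) in dHEP alcohol, 3.14 ± 0.61 (SE; adjusted p = 0.00061) in FF alcohol, 4.08 ± 0.71 (SE; adjusted p = 0.0002) in dHEP chow and 4.19 ± 0.71 (SE; adjusted p = 0.00017) in FF chow mice. As folds these are 9.78, 8.82, 16.9 and 18.3, and the calls held under every setting tried. Without the FF-523 and FF-581 non-tumor libraries, a choice made after seeing the data, the FF alcohol value was 4.30 (adjusted p = 0.00014). Apoa4 is an intestinal gene, so enterocyte markers were read beside it: Sis and Cdx1 were listed at 0 in all 28 libraries, Alpi and Cdx2 reached at most 0.0792 CPM and Lct at most 0.359 CPM. Vil1, the microvillus protein villin, reached at most 9.99 CPM, and it was called higher in FF chow tumors (mean 4.3 CPM, against 0.903 CPM in FF chow non-tumor liver, n = 3 each; log2 1.10, adjusted p = 0.029). Fabp2, which liver also expresses, made up most of the sum of the 7 enterocyte genes.

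Trf, the iron carrier, was the second most abundant gene of the tumors by CPM and the fourth of non-tumor liver. It read 57564, 38940.1, 32594 and 20903 CPM in dHEP alcohol tumors, against 14503, 14288, 15405 and 12456 CPM in dHEP alcohol non-tumor liver. Trf read 40750.2, 48551, 59535 and 55517 CPM in FF alcohol tumors, against 15779, 21485, 25484 and 14026 CPM in FF alcohol non-tumor liver. On alcohol every tumor lay above the non-tumor libraries of its group, and FF-523 and FF-581 again held the highest non-tumor values there. Trf stood at 34636, 65763 and 16444 CPM in dHEP chow tumors, against 17650.2, 15424 and 15300.4 CPM in dHEP chow non-tumor liver. Trf stood at 41843, 56886 and 55526 CPM in FF chow tumors, against 14251, 24937 and 14864 CPM in FF chow non-tumor liver. The dHEP chow groups overlapped through the dHEP-165 tumor, and the FF chow groups did not overlap although FF-158, the library with female-biased genes, had the highest Trf of that non-tumor group.

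The log2 fold change of Trf was 1.32 ± 0.42 (SE; adjusted p = 0.029) in dHEP alcohol, 1.44 ± 0.42 (SE; adjusted p = 0.015) in FF alcohol and 1.55 ± 0.49 (SE; adjusted p = 0.019) in FF chow mice (2.49, 2.71 and 2.92 times the non-tumor level); in dHEP chow mice it was 1.06 ± 0.49 (SE; adjusted p = 0.11), not called. When only genes averaging at least 5 CPM were fitted, Trf was called there too (1.06 ± 0.39, adjusted p = 0.043). The calls in the other 3 groups were less stable than those of Apoa1, Apoa2 and Apoa4: with no filter the adjusted p was 0.55, 0.48 and 0.46 in the 3 groups, and with median-of-ratios scaling 0.077 in dHEP alcohol and 0.065 in FF chow mice. With the animal as a block the dHEP alcohol difference was 1.32 with an adjusted p of 0.074. Leaving out 1 library ended the dHEP alcohol call for the tumors of dHEP-518 (adjusted p = 0.096) and dHEP-520 (0.06). It also ended that call for the non-tumor liver of each of the 4 mice, with 0.06 for dHEP-518, 0.061 for dHEP-520, 0.051 for dHEP-549 and 0.068 for dHEP-550. Of the FF chow libraries, it ended the call for the tumors of FF-168 (0.053) and FF-169 (0.051) and the non-tumor liver of FF-157 (0.077) and FF-159 (0.071). Without the dHEP-165 tumor, Trf was called in dHEP chow mice as well (1.57 ± 0.49, adjusted p = 0.019).

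Ttr, the thyroid hormone carrier, was called in no tissue comparison. Its log2 fold change was -0.22 in dHEP alcohol, -0.30 in FF alcohol and -0.47 in dHEP chow mice, with overlapping libraries. In FF chow mice it read 2649, 3844 and 3202 CPM in tumors, against 4334, 5744 and 5160.4 CPM in non-tumor liver, which did not overlap (-0.66 ± 0.38 SE, adjusted p = 0.2). Over all libraries Ttr ranged from 1341 to 7046 CPM in tumors and from 3217 to 5744 CPM in non-tumor liver, and both tumor extremes were dHEP chow mice (dHEP-155 and dHEP-165). Without the dHEP-165 tumor Ttr was called lower in dHEP chow tumors (-0.99 ± 0.35, adjusted p = 0.036).

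**Figure D3:**
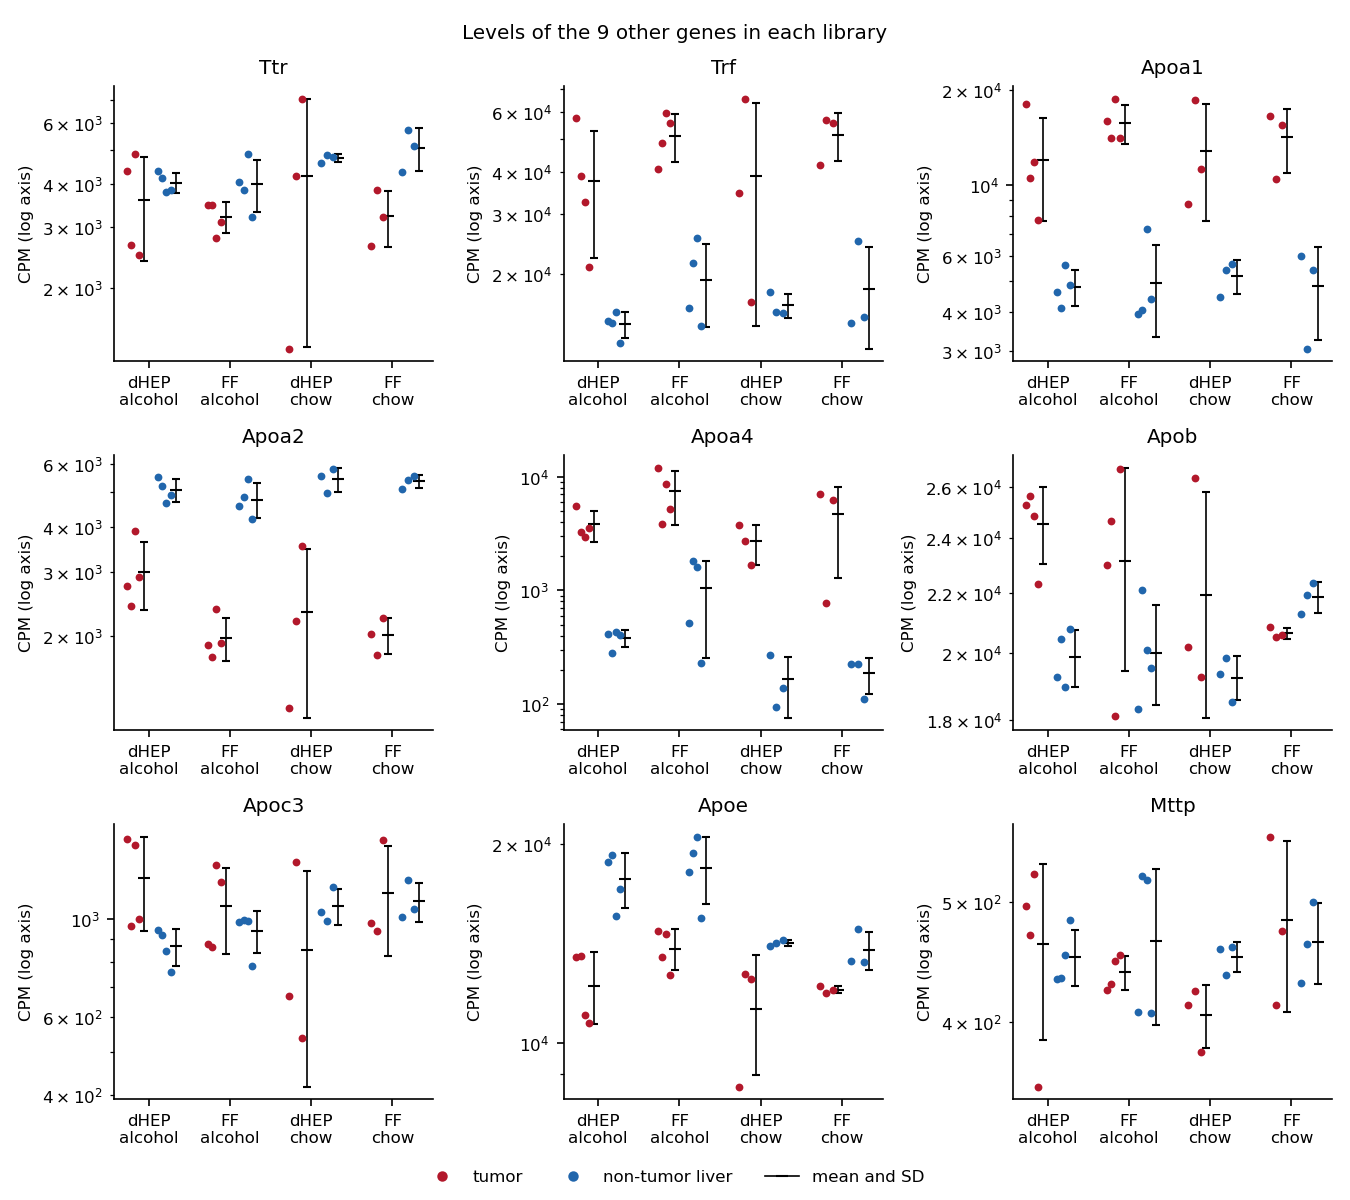
CPM of the 9 members other than Alb in each library (vertical axis, log scale), 1 panel per gene, with points for libraries and the mean and SD of each group; tumors stand left of non-tumor liver. Apoa4 ranges from 780 to 12090 CPM in tumors and from 94.15 to 1818 CPM in non-tumor liver, while Mttp ranges from 354 to 565 CPM over all 28.

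The 2 members that build VLDL, Apob and Mttp, were called in no tissue comparison. Apob, the structural protein of VLDL, read 18129 to 26772 CPM in tumors (median 22658) and 18309 to 22348 CPM in non-tumor liver (median 19968). In dHEP alcohol mice its tumors (25281, 25627, 24825 and 22318 CPM) lay above their non-tumor liver (19253, 20468, 18965 and 20786 CPM), with a log2 fold change of 0.30 ± 0.28 (SE; adjusted p = 0.5). In FF chow mice the tumors (20847, 20509 and 20589.8 CPM) lay below the non-tumor liver (21283, 21939 and 22348 CPM), with -0.08 ± 0.33 (SE; adjusted p = 0.88); this sign turned to 0.06 when the total was taken without the 10 genes. Neither difference was called, and the other 2 groups overlapped. Mttp, which loads lipid onto Apob, had the narrowest range of group means (1.2-fold from lowest to highest). Its tumors lay below non-tumor liver only in dHEP chow mice, at 413, 423 and 378 CPM against 458, 436 and 460.0 CPM (-0.16 ± 0.14 SE, adjusted p = 0.44).

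Apoe, the receptor ligand of remnant particles, was lower in every tumor than in every non-tumor library of its group, but was called in none of the 4. The dHEP alcohol mice had 13493, 13540.5, 11047 and 10736 CPM of Apoe in tumors, against 18799, 19248, 15537 and 17095 CPM in non-tumor liver. The FF alcohol mice had 14791, 13475, 14597 and 12676 CPM of Apoe in tumors, against 18146, 19392, 20436 and 15467 CPM in non-tumor liver. The chow groups lay closer: dHEP tumors had 8609, 12702 and 12485 CPM, against 14031, 14158 and 14321 CPM in dHEP non-tumor liver, and FF tumors had 12189.9, 11930.3 and 12048 CPM, against 13318, 14860.2 and 13281 CPM in FF non-tumor liver. The log2 fold change was -0.54 ± 0.25 (SE; adjusted p = 0.13) in dHEP alcohol, -0.40 ± 0.25 (SE; adjusted p = 0.26) in FF alcohol, -0.35 ± 0.29 (SE; adjusted p = 0.38) in dHEP chow and -0.20 ± 0.29 (SE; adjusted p = 0.64) in FF chow mice. Apoe passed the threshold in dHEP alcohol mice when only genes averaging at least 5 CPM were fitted (adjusted p = 0.022).

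Apoc3, the inhibitor of triglyceride clearance, did not move in 1 direction. In dHEP alcohol mice it read 1521, 965, 1472 and 997 CPM in tumors, against 943, 921, 844 and 759 CPM in non-tumor liver, without overlap but not called (0.49 ± 0.23 SE, adjusted p = 0.14). Its log2 fold change was -0.44 ± 0.27 (SE; adjusted p = 0.23) in dHEP chow mice, where the tumors read 670.1, 1346 and 537 CPM, against 1034, 989.6 and 1183 CPM in non-tumor liver. The dHEP-164 tumor was the only 1 of these 3 above its non-tumor liver, and without it Apoc3 was called lower (-0.83 ± 0.24, adjusted p = 0.013). In FF mice the change was 0.17 on alcohol (adjusted p = 0.65) and 0.03 on chow (0.95).

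Both tissues came from 11 mice, and the ratio of tumor to non-tumor CPM within a mouse showed the same division of the set. Alb was higher in the tumor in 11 of 11 mice (ratio 1.71 to 4.04, median 2.67), as were Apoa4 (2.10 to 28.8, median 12.2), Apoa1 (1.60 to 4.04, median 2.58) and Trf (1.07 to 4.26, median 2.34). Apoa2 was lower in 11 of 11 (0.227 to 0.838, median 0.452), and so was Apoe (0.614 to 0.897, median 0.714). Apob was above 1 in 10 of 11 mice, but by little (0.902 to 1.37, median 1.25). Apoc3 was above 1 in 7 and below in 4 (0.454 to 1.74), Mttp above in 5 and below in 6 (0.733 to 1.16), and Ttr spread from 0.291 to 1.47 with a median of 0.875. The lowest Apoa4 ratio was that of FF-523, whose non-tumor library stood apart. These are the same libraries as in the comparisons above, so the ratios show them by mouse and are not further evidence.

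**Figure D4:**
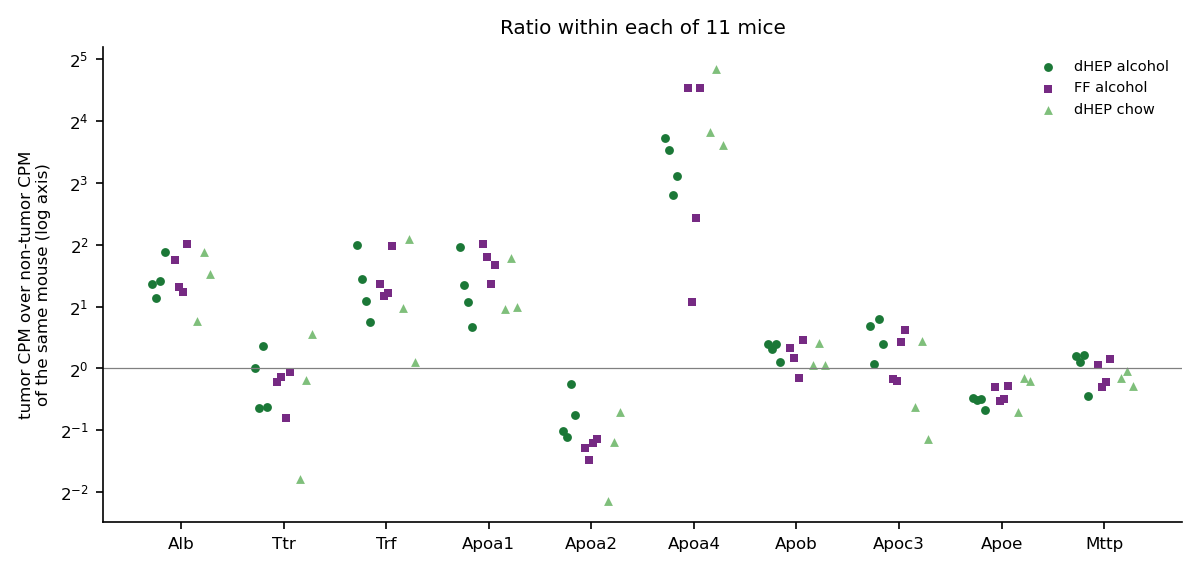
Ratio of tumor to non-tumor CPM within each of 11 mice (vertical axis, log scale to base 2), by member; circles are dHEP alcohol, squares FF alcohol and triangles dHEP chow mice. Apoa4 spreads from 2.10 to 28.8, Apoa2 and Apoe stay below 1 in all 11 mice, and Mttp lies between 0.733 and 1.16.

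The 3 members of the chromosome 9 cluster were not called alike. Apoa1 and Apoa4 rose in tumors of all 4 groups, while Apoc3, which lies between them on the other strand, was called in none. The log2 fold change of Apoc3 ranged from -0.44 in dHEP chow to 0.49 in dHEP alcohol mice. Its difference from its neighbours was not tested. Apoa5, at the far end of the cluster and an activator of triglyceride lipolysis, fell in tumors of both chow groups: it averaged 405 ± 272 CPM in dHEP chow tumors and 1133 ± 152 CPM in dHEP chow non-tumor liver (log2 -1.87, adjusted p = 0.0031), and 527 ± 202 CPM in FF chow tumors and 1304 ± 109 CPM in FF chow non-tumor liver (-1.37, adjusted p = 0.022; SD, n = 3 each). On alcohol Apoa5 averaged 859 ± 323 CPM in dHEP tumors and 1168 ± 68.9 CPM in dHEP non-tumor liver, and 740.2 ± 167.7 CPM in FF tumors and 1014 ± 232 CPM in FF non-tumor liver (n = 4 each), and was not called. The CPM ratio of Apoa4 to Apoa1 averaged 0.345 ± 0.172 in tumors and 0.10 ± 0.113 in non-tumor liver (SD, n = 14 each). The ratio of Trf to Alb averaged 0.421 ± 0.121 in tumors and 0.41 ± 0.0986 in non-tumor liver, and that of Apoa1 to Alb 0.128 ± 0.021 in tumors and 0.123 ± 0.0407 in non-tumor liver. Within FF chow mice both ratios were higher in tumors without overlap: the tumors spanned 0.421 to 0.565 for Trf to Alb, against 0.239 to 0.389 in their non-tumor liver, and 0.104 to 0.166 for Apoa1 to Alb, against 0.0478 to 0.101 in the same non-tumor libraries. In the other 3 groups tumors and non-tumor liver overlapped in both ratios.

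Per kb of exon, so that levels can be set between genes, Alb led the set in both tissues, with a mean of 45356 CPM per kb in tumors and 18417 CPM per kb in non-tumor liver. In tumors it was followed by Trf (13456), Apoa1 (11086), Apoe (5824), Apoa2 (4375), Ttr (2986), Apoa4 (2652), Apob (1632), Apoc3 (1071) and Mttp (72.14 CPM per kb). In non-tumor liver the order after Alb was Apoa2 (9549), Apoe (7620), Trf (5074), Apoa1 (3977), Ttr (3710), Apob (1450), Apoc3 (966), Apoa4 (266.2) and Mttp (73.8 CPM per kb). Over the libraries, neighbours in these orders mostly overlapped. The exceptions in tumors were Alb, whose lowest value (28949 CPM per kb) lay above the highest of Trf (19808), and Mttp, which lay below every value of Apoc3. In non-tumor liver Ttr lay above Apob, and Apob above Apoc3, in every library, while Alb overlapped Apoa2 (10356 at the lowest, against 10787 at the highest).

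The diet comparisons showed no called member. Between dHEP alcohol and dHEP chow tumors 0 of 9 members were called (0.00757% of 13205 genes), and between FF alcohol and FF chow tumors 0 of 9 (0%). Between dHEP alcohol and dHEP chow non-tumor liver it was 0 of 9 (0.656% of 12651 genes), and between FF alcohol and FF chow non-tumor liver 0 of 9 (0.577%). At an unadjusted p under 0.05 limma gave 0 members in both tumor comparisons, 2 in dHEP non-tumor liver (Apoa4 and Apoc3) and 1 in FF non-tumor liver (Apoa4), where 1441, 718, 1662 and 1767 genes passed that level.

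Apoa4 had the largest log2 difference between diets of the 9 members in non-tumor liver. It averaged 1044 ± 789 CPM in FF alcohol non-tumor liver and 187 ± 65.4 CPM in FF chow non-tumor liver (SD, n = 4 and 3), a log2 fold change of 2.10 ± 0.59 (SE; adjusted p = 0.12), and the alcohol libraries (518.3, 1818, 1614 and 227 CPM) all lay above those on chow (223, 225 and 111 CPM), the lowest of them narrowly. FF-523 and FF-581, the libraries with Afp, held the highest values: without both of them, left out after seeing the data, the difference was 0.95 (adjusted p = 0.46), and without FF-595 it was 2.69 (adjusted p = 0.017). In the same comparison Fabp2, a fatty acid binding protein, averaged 101 ± 26.5 CPM in FF alcohol non-tumor liver and 42.2 ± 2.0 CPM in FF chow non-tumor liver (log2 1.20, adjusted p = 0.024); its part in the difference was not tested. In dHEP non-tumor liver Apoa4 averaged 382 ± 68.3 CPM on alcohol and 166.6 ± 90.7 CPM on chow, with 1.31 ± 0.59 (SE; adjusted p = 0.36). Those groups did not overlap either, again narrowly (415, 281, 426 and 407 CPM on alcohol against 268, 94.2 and 137 CPM on chow).

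In both genotypes Apoe lay higher and Apoc3 lower in every alcohol non-tumor library than in every chow one. Apoe differed by 0.31 ± 0.20 (SE; adjusted p = 0.55) in dHEP and by 0.40 ± 0.20 (SE; adjusted p = 0.4) in FF mice. Apoc3 differed by -0.30 ± 0.13 (SE; adjusted p = 0.32) in dHEP and by -0.23 ± 0.13 (SE; adjusted p = 0.46) in FF mice. Ttr also stood apart in dHEP non-tumor liver, at 4358, 4162, 3792 and 3841 CPM on alcohol against 4605, 4835 and 4796 CPM on chow (-0.23 ± 0.16 SE, adjusted p = 0.59). None of these was called. In all, libraries of both diets did not overlap for 4 of 9 members in dHEP non-tumor liver (17.3% of all genes) and 3 of 9 in FF non-tumor liver (9.3%). In tumors it was 0 of 9 in dHEP mice (5.66%) and 1 of 9 in FF mice (10.9%), namely Apoe at 14791, 13475, 14597 and 12676 CPM on alcohol against 12189.9, 11930.3 and 12048 CPM on chow (0.20 ± 0.30 SE, adjusted p = 0.98).

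Alb itself, given without a test, averaged 105798 ± 26212 CPM in dHEP alcohol tumors and 96405 ± 26041 CPM in dHEP chow tumors, and 115708 ± 13645 CPM in FF alcohol tumors and 103959 ± 6698 CPM in FF chow tumors. In non-tumor liver it averaged 39579 ± 13019 CPM in dHEP alcohol and 35888 ± 3624 CPM in dHEP chow mice, and 39565 ± 11058 CPM in FF alcohol and 59871 ± 4166 CPM in FF chow mice. FF chow non-tumor liver had the highest of these means, and its 3 libraries lay above all FF alcohol and all dHEP chow non-tumor libraries. It overlapped dHEP alcohol non-tumor liver, where dHEP-518 (55917 CPM) lay above FF-159 (55819 CPM). FF-158, the library with female-biased genes, had the highest Alb of the 3 FF chow libraries. The other 2 also lay above all FF alcohol and all dHEP chow non-tumor libraries.

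The genotype comparisons, which ask whether loss of the receptor in hepatocytes goes with a difference in these genes, called no member. Between dHEP and FF mice 0 of 9 members were called in alcohol tumors (0% of 13205 genes), chow tumors (0%), alcohol non-tumor liver (0% of 12651 genes) and chow non-tumor liver (0%), and 0 members passed an unadjusted p under 0.05 in any of the 4, where 833, 378, 1077 and 588 genes did. Libraries did not overlap for 1 of 9 members in alcohol tumors (3.54% of all genes), 0 of 9 in chow tumors (5.44%), 0 of 9 in alcohol non-tumor liver (3.91%) and 1 of 9 in chow non-tumor liver (11.5%). In alcohol tumors that member was Apoa2, at 2745, 2413, 3912 and 2914 CPM in dHEP against 1878, 1739, 2365 and 1907 CPM in FF mice (0.59 ± 0.28 SE, adjusted p = 0.79). In chow non-tumor liver it was Apob, at 19365, 19842 and 18512 CPM in dHEP against 21283, 21939 and 22348 CPM in FF mice (-0.18 ± 0.22 SE, adjusted p = 0.99). A missed threshold does not show that the genotypes are alike: the standard error of Apoa4 was 0.61 in alcohol tumors and 0.71 in chow tumors on the log2 scale.

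Whether the tissue difference itself varied was tested as an interaction. Between diets 0 of 9 members were called in dHEP mice (0% of 13503 genes) and 0 of 9 in FF mice (0%), and between genotypes 0 of 9 on alcohol (0%) and 0 of 9 on chow (0%). At an unadjusted p under 0.05, limma gave 867, 801, 266 and 421 genes in these 4 tests. Apoc3 was the only member among them: its tissue difference on alcohol minus that on chow was 0.93 ± 0.35 (SE; adjusted p = 0.75) in dHEP mice. For Apoa4 the tissue difference on alcohol minus that on chow was -0.79 ± 0.94 in dHEP and -1.05 ± 0.94 in FF mice, and that in dHEP minus that in FF mice was 0.15 ± 0.87 on alcohol and -0.11 ± 1.0 on chow. These errors set what could be seen: a difference of this size in the tissue effect was not detectable with 3 or 4 libraries per group.

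The genes whose pattern over the 28 libraries was most like that of Alb, Apoa4 and Trf, the 3 members named by rule for this, were read by Pearson's r of log2(CPM + 1) among 2885 other genes averaging at least 50 CPM. For Alb these were Hgfac (r = 0.929), Ahsg (0.913) and Kng2 (0.91). For Apoa4 they were Mpp1 (0.934), Ifi27l2b (0.923) and Gldn (0.91), and for Trf Serpina1b (0.96), Itih5 (0.954) and Akr1c18 (0.944). The 28 points fall into tumors and non-tumor liver and share each library's total, so r describes that division as well. Serpina1b belongs to a family of near-identical genes, and its value is uncertain where reads could fall on several of them.

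Other apolipoproteins included genes that rose and genes that fell in tumors. Of 8 tested, 2 rose and 0 fell in dHEP alcohol mice, 2 rose and 2 fell in FF alcohol mice, and 2 rose and 3 fell in each chow group. Of all genes, 12.9%, 13.9%, 17.2% and 21.2% were called higher in dHEP alcohol, FF alcohol, dHEP chow and FF chow mice. In that order 7.54%, 10.6%, 10.7% and 9.55% were called lower, and these shares apply to the lists below as well. Apoc2, the cofactor of lipoprotein lipase, rose by 2.34 to 3.28 on the log2 scale over the 4 groups, and averaged 1139 ± 674 CPM in dHEP alcohol tumors and 197 ± 17.1 CPM in their non-tumor liver (SD, n = 4 each). Apom, which binds sphingosine 1-phosphate on HDL, rose by 1.78 to 2.11, and Apoa5 fell on chow as given above. The list medians were -0.17, -0.12, -0.45 and -0.40 in dHEP alcohol, FF alcohol, dHEP chow and FF chow mice, against 0.09, 0.05, 0.14 and 0.16 for all genes.

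More genes that remodel HDL fell than rose in tumors. In the same order of groups 4, 5, 5 and 5 of 9 fell and 1, 0, 2 and 2 rose, with medians of -0.51, -0.76, -0.93 and -0.51; with the total taken without the 10 genes 2 fell and 2 rose in dHEP alcohol mice. Pon1, an esterase carried on HDL, was lower in all 4 groups (-3.93 to -1.81), as were the lipases Lipc (-2.73 to -1.48) and Lipg (-2.95 to -1.15) and Lcat, which esterifies HDL cholesterol (-1.14 to -0.67). Scarb1, the HDL receptor, rose in both dHEP groups (1.02 and 1.27). Abca1, the transporter that loads cholesterol onto apolipoprotein A-I, rose in 2 groups (0.79 and 0.83).

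Genes of lipoprotein assembly and secretion were called higher more often than lower, as all genes were. This direction is therefore not particular to the list. The list departed from it in FF chow mice under median-of-ratios scaling (2 higher, 3 lower, median -0.09). Of 15 tested, 5, 5, 5 and 4 rose and 0, 1, 1 and 1 fell in the same order of groups, with medians of 0.10, 0.13, 0.30 and 0.08. The rises were in Tm6sf2, which enriches VLDL in lipid (0.94 to 1.26), P4hb, the disulfide isomerase that partners Mttp (0.53 to 0.75), Pla2g12b (0.60 to 0.86) and Surf4, a cargo receptor (0.33 to 0.58), each in all 4 groups. Cideb, a lipid droplet protein of VLDL lipidation, fell in 3 groups. Mttp and Apob, as above, were called in none.

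Of 16 genes of receptors, uptake and lipolysis, 4, 3, 4 and 6 rose and 0, 1, 2 and 2 fell in the same order, with medians of 0.21, 0.05, -0.18 and 0.40. Angptl8, an inhibitor of lipoprotein lipase, rose in all 4 (1.41 to 2.17), and Lpl, that lipase, rose in 3 (1.27 to 2.66). Among 10 other plasma carriers, 1, 3, 3 and 3 rose and 0, 0, 0 and 1 fell, with medians of 0.60, 0.40, 0.77 and 0.24; Ahsg, fetuin A, rose in all 4 (1.08 to 1.72). The counts of these carriers moved with the scaling: under median-of-ratios scaling 0 were called higher and 1 lower in FF chow mice, the Ahsg call there being lost, and with the total taken without the 10 genes 5 were called higher in dHEP alcohol mice. Of 22 transcription factors known to act on liver genes, 4, 5, 6 and 5 fell and 0, 0, 0 and 1 rose, with medians of -0.19, -0.48, -0.47 and -0.38; with the total taken without the 10 genes 2 rose and 2 fell in dHEP alcohol mice (median -0.02). Nr1h4, the bile acid receptor, was lower in all 4 (-1.68 to -0.80), and so was Hlf (-1.44 to -0.75). Hnf4a, a main regulator of apolipoprotein genes, was not called, its group means being 521 to 658 CPM in tumors and 674 to 851 CPM in non-tumor liver.

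Abca1 was also called between diets. It averaged 698 ± 33.0 CPM in FF alcohol non-tumor liver and 450 ± 52.3 CPM in FF chow non-tumor liver (log2 0.64, adjusted p = 0.024). In that comparison 73 of 12651 genes were called (0.577%), a count that moved widely when libraries were left out, as given further on. Apoa1 itself was not called there, at 4914 ± 1581 CPM on alcohol and 4823 ± 1552 CPM on chow.

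**Figure D5:**
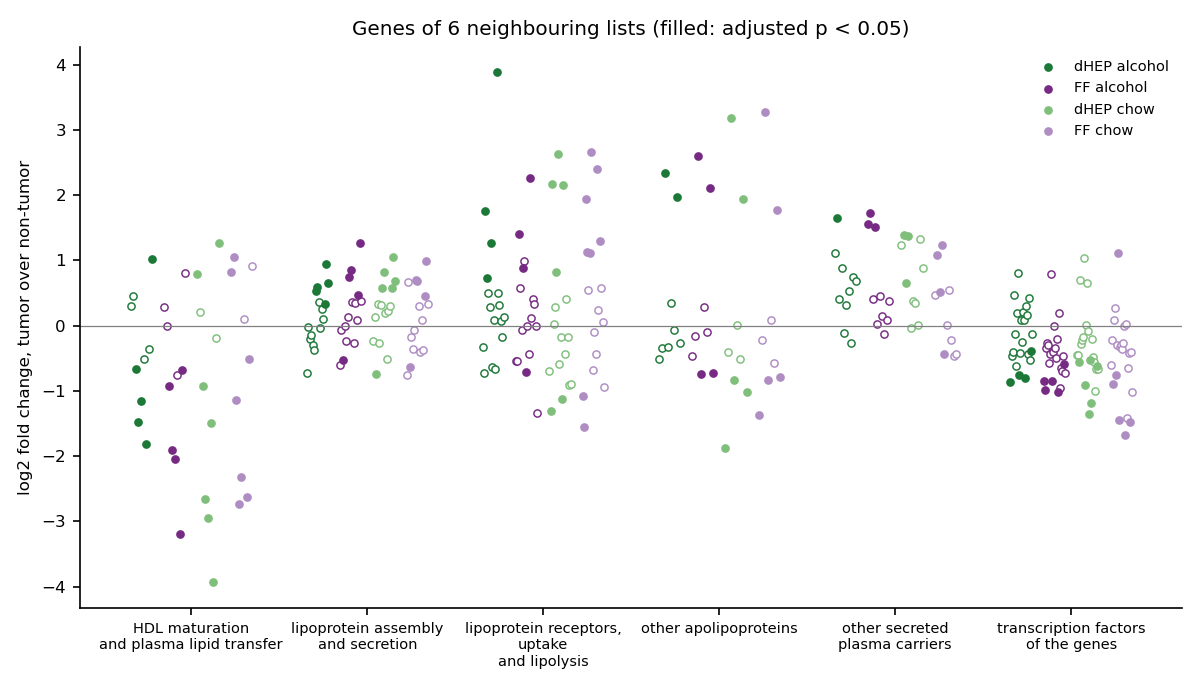
Log2 fold change, tumor over non-tumor liver (vertical axis, log2 of CPM + 1), of each gene of 6 related lists in the 4 groups; filled points have an adjusted p under 0.05. Points reach down to -3.93 (Pon1, HDL maturation, dHEP chow), and the filled points of the transcription factors lie below 0 but for 1 in FF chow mice, while scaling to the total without the 10 genes, not drawn, gives 2 above and 2 below 0 in dHEP alcohol mice.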

How the data were processed

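RNA libraries of 28 mouse liver samples were put into 8 groups, as the labels give genotype, diet and tissue. The deposited table holds CPM per gene, made by the authors using STAR (2.5.1a), RSEM (1.3.0) and the GRCm38 build, per the submitters' processing notes; each column sums to 1000000. The labels name polyA RNA and also a stranded total RNA kit, so the RNA fraction is not settled by the sources used here. Symbols, positions and exon lengths came from the GENCODE M21 annotation for 21653 of 22187 gene IDs; the other 534 have no name here. Of values up to 20 reads, 85.2% to 87.2% per library were whole reads within 0.1 read, too few for a count model. The highest Pearson r between libraries was 0.9954, and no pair was treated as 1 sample.

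The moderated test of limma (3.58.1, R 4.3.3), with its trend option, was applied to log2(CPM + 1). Genes were kept where 3 or more fitted libraries reached 1 CPM. P-values had Benjamini-Hochberg adjustment over all genes, with a threshold of 0.05. On this scale a fold change understates that of low genes. Tissue comparisons and interactions came from 1 fit of 28 libraries, diet and genotype comparisons from 1 fit per tissue of 14. The fit was tested on simulated data. Tables were made with Python 3.11.15 and pandas 2.3.3 and plots with matplotlib 3.10.9. The members, the 6 related lists and the marker lists were chosen with earlier results of these data known. Genes of the lists were named by smallest p among those called, up to 4 per list and comparison (1 gene that the rule names is not reported here), and for each member the 3 most alike genes were found. Alternatives were a pseudocount of 0.5, no filter, a mean of 5 CPM or more, median-of-ratios scaling, the total without the 10 genes, the animal as a replicate block, and each library left out. Leaving out both FF-523 and FF-581 non-tumor libraries was added after seeing the data.

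The number in a sample name was read as the animal, which pairs tumor and non-tumor liver of 11 mice; within such pairs, deviations from the means of the groups had correlations of 0.16 to 0.36 for FF alcohol, -0.11 to 0.25 in dHEP alcohol and 0.07 to 0.19 in dHEP chow mice. Nothing else in the labels says that samples of a group are separate animals or that tumors are independent, so p-values measure the spread between these samples.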

Additional observations from a re-analysis of the deposited data

Results flagged for a closer look

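Each member's CPM was read in the groups of 4 libraries, in 40 sets of gene and group, for a value whose gap to its nearest neighbour exceeded 0.829 of the group's range (Dixon's 95% critical value). Chance alone marks about 1 in 20 such sets, and 3 were marked. Apoa4 read 280.6 CPM in the non-tumor liver of dHEP-520, below the other 3 dHEP alcohol non-tumor libraries. Apoa1 read 7268 CPM in the non-tumor liver of FF-581, above the other 3 of FF alcohol. Apoc3 read 783.8 CPM in the non-tumor liver of FF-595, below the other 3 of that group.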

How the results depend on the processing

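Of 9 members, 4 were called between tumor and non-tumor liver in dHEP alcohol mice; with no filter on low values 1 was, and leaving out 1 library in turn gave 2 to 4. In dHEP chow mice the count of 3 ranged from 3 to 5 in this way, with 5 called without the dHEP-165 tumor. It was smaller with no filter and with median-of-ratios scaling, where the Apoa1 call was lost. In FF alcohol and FF chow mice the Trf call was lost with no filter. Median-of-ratios scaling ended the Trf call in dHEP alcohol and FF chow mice. Between diets in FF non-tumor liver, 0 members were called and 0 to 1 when 1 library was left out, Apoa4 being called without FF-595. The log2 fold change of Apob in FF chow mice was -0.08, and 0.06 when the total was taken without the 10 genes, and was called in neither. Over the fold changes of members that were called or whose groups did not overlap, 182 values under another setting kept direction and side of the threshold, 11 fell below it, 1 passed it and 1 turned; with 1 library left out the counts were 225, 12, 1 and 0. Outside these, Trf was called in dHEP chow mice with a mean of at least 5 CPM (adjusted p = 0.043); leaving out the dHEP-164 tumor added a call of Apoc3 there, and leaving out the dHEP-165 tumor added Trf and Ttr. The replicate block by animal ended the Trf call in dHEP alcohol mice (1.32, adjusted p = 0.074), leaving 3 members called there, and changed no other member's call; it could not be fitted in FF chow mice, whose tissues came from different animals. With FF-523 and FF-581 left out, 4 members were called in FF alcohol mice.

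Counts over all genes moved more. In dHEP alcohol mice 2754 genes were called between tissues and 4229 with the total taken without the 10 genes; in dHEP chow mice 3769 were called and 2372 without the dHEP-155 tumor. Between diets in FF non-tumor liver 73 were called, 31 with no filter, 150 with median-of-ratios scaling, 9 without FF-523 and FF-581, and 3 to 216 with 1 library left out. In dHEP non-tumor liver 83 were called, and 2 to 42 with 1 library left out; in dHEP tumors 1 was called, 0 with no filter and 0 to 53 with 1 library left out. With 3 or 4 libraries per group and standard errors near 0.6 to 0.7 for Apoa4, smaller differences of Apoa4 between diets or genotypes were not detectable. The standard errors of the other members were smaller, down to 0.1 for Mttp between genotypes in alcohol non-tumor liver. The causes of these changes were not tested.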
